A study of Homo sapiens with 108 samples.

Results

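A group of genes of polyamine metabolism and hypusine formation, 10 of the 19761 genes counted, was followed through a SLAM-seq experiment in HEK293T cells. They are the antizymes OAZ1 and OAZ2, the antizyme inhibitor AZIN1, ornithine decarboxylase ODC1, the spermidine and spermine enzymes AMD1, SRM, SMS and SAT1, the translation factor EIF5A and the hypusine enzyme DHPS. The genes were chosen by function, selected on no recorded cutoff, but at a time when levels and T>C label of these same libraries had been looked at. The tests below therefore place each gene among all genes and are not independent support for the choice.

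HEK293T is a transformed human embryonic kidney line. Cells carried a lentiviral short hairpin against ZMAT3, ZMAT5, MAZ, ZNF706, PHF7, CNOT4, BRCA1 or ZFP36L1, or a non-targeting hairpin (NT), and were selected with puromycin. All arms were kept in 10 µM 4-thiouridine (4SU) for 24 h, the medium being renewed every 8 h. Uridine at 1 mM then replaced the label, and RNA was taken 0, 2, 4 and 8 h into this chase, with 3 biological replicates per arm and time, which makes 108 libraries. Alkylated 4SU is read as C, so the share of covered T positions read as C (the T>C conversion rate) measures how much of a transcript was made during labelling, and its fall during the chase measures loss of old RNA. The study asked which zinc-finger proteins set the lifetime of RNA. Each arm was 1 hairpin in 1 line, and all 8 knockdowns were compared with the same 12 NT libraries.

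Polyamines (putrescine, spermidine and spermine) are small cations that every dividing cell needs. ODC1 makes putrescine. AMD1 supplies the aminopropyl donor with which SRM makes spermidine and SMS makes spermine, and SAT1 acetylates both for export or breakdown. Antizyme closes the loop: high polyamine makes ribosomes shift frame on the antizyme mRNA, and the full-length protein then takes ODC1 to the proteasome, while AZIN1 draws antizyme away. Spermidine also donates the group that DHPS and DOHH use to build hypusine, a residue known only in eIF5A.

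The frameshift site is what sets the antizyme mRNAs apart from the other genes here, so it is shown for both (hg38, 30 bases each, the stop codon of the first reading frame in capitals). The OAZ1 site lies at chr19:2271425-2271454 on the plus strand and the OAZ2 site at chr15:64691504-64691533 on the minus strand.
OAZ1: gggcctcggtggtgctccTGAtgcccctca
OAZ2: gggcctctgtggtgctccTGAtgcccctca
Counted from the 5′ end of the window, the pair differ by 1 substitution, G8T, with the OAZ1 base first.

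Reads were counted at the far end of these transcripts, since QuantSeq primes at the poly(A) tail. The 3′ ends of the mRNAs that carry the main results are shown with the poly(A) signal in capitals, OAZ1 at chr19:2273457-2273486 and EIF5A at chr17:7312419-7312448, both in the 3′ UTR and on the plus strand of hg38. The genes span chr19:2269509-2273490 and chr17:7306999-7312463.
OAZ1: tctccaaaagccAATAAAgtgattacaccc
EIF5A: aaatcaaacctgAATAAAactacaagttta
The signal ended 16 bases before the end of the counted OAZ1 interval and 27 bases before that of EIF5A. OAZ1 has 3 counted intervals with 765 bases, and the last of them held 95.1% of its reads in NT and 94.0% in ZMAT3 knockdown. EIF5A has 654 counted bases in 2 intervals. Neither gene shares counted bases with another gene, and the share of multimapped reads was 0.123% for OAZ1 and 0.230% for EIF5A. The AU-rich core TATTTAT, a destabilising element on the sense strand, occurred in none of the counted bases of OAZ1, OAZ2, AZIN1, ODC1, SMS, SAT1 or EIF5A and once each in AMD1, SRM and DHPS, where 40.5% of the 8955 genes expressed in NT hold it.

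Libraries held 63659 to 30750027 reads in 3′ UTRs, median 14870063. The shallowest was PHF7 8 h replicate 3. The libraries labelled CNOT4 and ZFP36L1 stood apart, with 27.7 to 34.0 and 25.9 to 33.0 covered T positions per read compared with 37.1 to 37.8 for NT. The CNOT4 libraries were themselves mixed: the file headers at 8 h name a pulse-chase and those at 0, 2 and 4 h a chase, the share of multimapped reads was 5.82% to 5.91% at 8 h and 9.34% to 11.9% before, and T positions per read were 32.5 to 34.0 and 27.7 to 31.3. CNOT4 2 h replicate 3 stood out further, with 1781724 reads and 6495 detected genes where the other CNOT4 libraries had 11185 to 13333. Its conversion rate was 0.665%, against 1.26% and 1.23% in replicates 1 and 2 at 2 h. It held no conversion in OAZ2 or SMS and no SAT1 read, and it is kept in the values below unless stated. Whether any of this had a part in the values of these arms was not tested. The targeted mRNA was at 10.5% of its NT mean for ZMAT5, whose counted bases all overlap CABP7, 12.2% for MAZ, 24.8% for ZMAT3, 29.3% for PHF7, 50.5% for ZNF706 and 53.8% for BRCA1. It was at 100.5% in the libraries labelled CNOT4 and at 172% in those labelled ZFP36L1. For these arms the 3′ end counts of the target thus do not bear out the label. The paper states that its SLAM-seq knockdowns were checked by qPCR. CNOT4 and ZFP36L1 stand below for the libraries so labelled, not for a loss of the target measured in them. The HEK293T markers LIN28B and NEFM had medians of 92.8 and 38.6 TMM-normalised CPM (read counts scaled to library size and between libraries), whereas PAX2 was at 0 in 62 libraries. Markers of leukocytes, liver, fibroblasts and muscle had medians of 0.

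OAZ1 and EIF5A mRNA were lower in 7 of the 8 knockdowns each, and the other 8 genes were lower or higher in 3 or fewer. A gene was called where edgeR's quasi-likelihood test, adjusted over all genes tested, was passed at an adjusted p under 0.05 and the level differed by more than 1.2-fold. All 10 genes were tested in every knockdown, and 28 of the 80 tests passed, 24 lower and 4 higher. AMD1 and DHPS passed in none. Over the 7 knockdowns with calls, the share of all genes lower ran from 2.29% in ZNF706 to 18.3% in ZFP36L1. The share higher ran from 2.85% to 21.7% with the same ends. In BRCA1 0.0785% were called in either direction. How many of all genes were lower in 7 knockdowns was not counted. BRCA1, the arm without a call, also resembled NT as a set of libraries. NT and BRCA1 held 4577042 to 13359455 reads and 10102 to 11825 detected genes. MAZ, PHF7, ZMAT3 and ZMAT5 held 13337328 to 30750027 reads and 12249 to 13975 detected genes, PHF7 8 h replicate 3 aside, and ZNF706 lay between, with 11609 to 12733 genes. The libraries labelled CNOT4 and ZFP36L1 did not share the greater depth, with 1781724 to 10300574 and 4555633 to 12048936 reads. They held 6495 to 13333 and 12982 to 14490 detected genes. MAZ mRNA was at 12.2% to 63.9% of its NT mean in the 7 arms with lower OAZ1 and EIF5A and at 104% in BRCA1. Over the 36 group means of log2 CPM, its Pearson r was 0.48 with EIF5A and 0.21 with OAZ1. These ranked 375 and 1185 out of 8128 genes. Whether the libraries of NT and BRCA1 or the level of MAZ had a part in these 7 differences was not tested, and taking BRCA1 as the reference does not separate them.

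**Figure D1:**
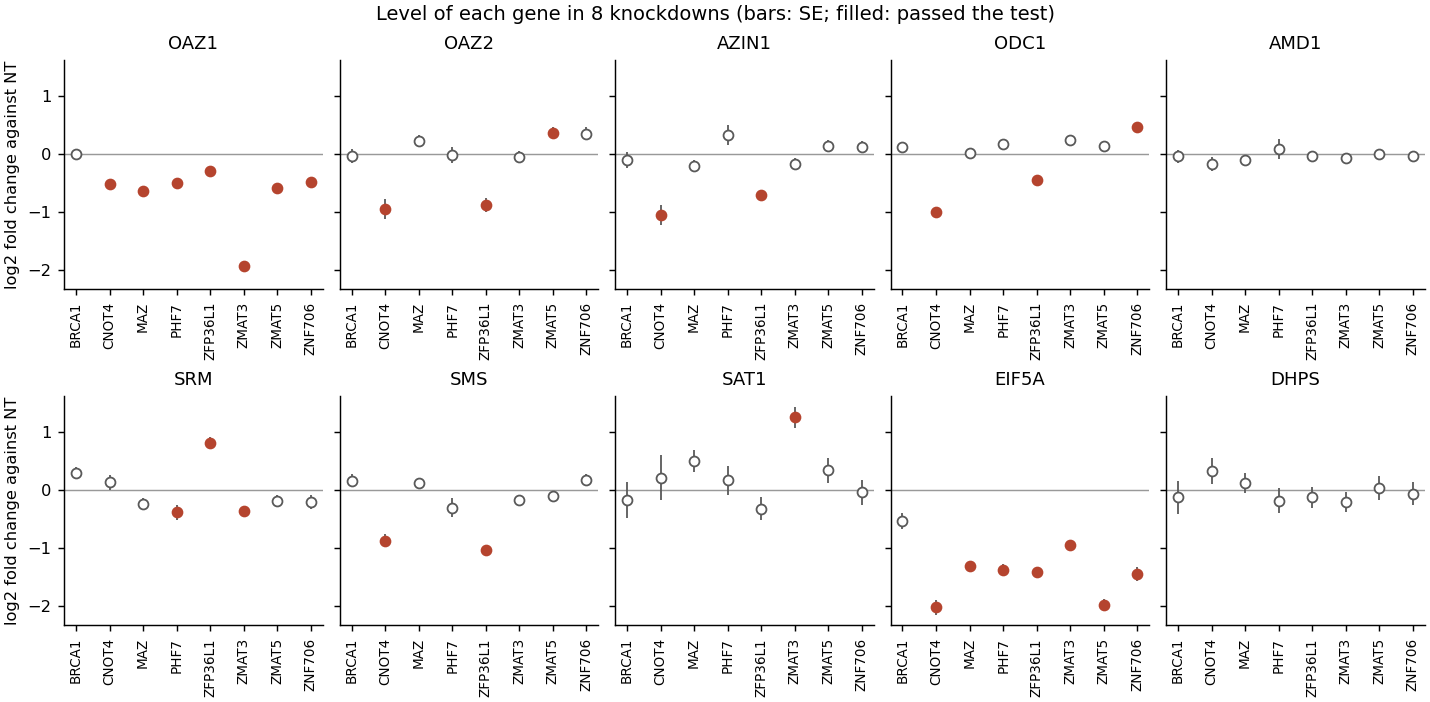
Log2 fold change in mRNA level of each of the 10 genes (one panel each, vertical axis) in 8 knockdowns (horizontal axis) against NT, 12 libraries against 12, with the SE as bars and filled points where the test was passed. OAZ1 and EIF5A have filled points below 0 in 7 knockdowns each, and OAZ1 in ZMAT3 knockdown stands at -1.94.

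In the libraries labelled CNOT4, 6 of the 10 genes were lower, where 13.5% of all genes tested were lower, and without the 8 h libraries of both arms the same 6 genes were lower, at -0.50 to -1.91. Without the CNOT4 8 h libraries and CNOT4 2 h replicate 3, a choice made after seeing the data, they were lower at -0.44 to -1.86. There 1912 of 13614 genes were lower. With all libraries the median log2 fold change was -0.70 against 0.08 over all genes. In those labelled ZFP36L1, 6 were lower and 1 higher, with 18.3% and 21.7% of all genes, and the median was -0.39 against 0.15. In ZMAT3 knockdown 3 were lower and 1 higher, with 4.75% and 5.49% of all genes. Fewer were called elsewhere. MAZ knockdown had 2 lower (3.55% of all genes) and PHF7 knockdown 3 lower (4.53%). ZMAT5 knockdown had 2 lower and 1 higher (4.22% and 5.29%), and ZNF706 knockdown also 2 lower and 1 higher (2.29% and 2.85%). In BRCA1 knockdown edgeR called none of the 10, where it called 0.0785% of all genes in either direction. At an unadjusted edgeR p under 0.05 there were 2 of the 10 and 877 of 12735 genes. DESeq2 called none of the 10, and over all genes 29 higher and 30 lower. Since the choice was made with these levels in view, nothing about the pathway is read from these counts.

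OAZ1, the antizyme that most cells express, stood at 26.1% of its NT level in ZMAT3 knockdown. ZMAT3 is a p53-induced zinc-finger protein that binds RNA. The 12 NT libraries ranged from 1532 to 1830 normalised CPM, median 1630, and the 12 ZMAT3 libraries from 401 to 477, median 433. The groups did not overlap, and the lowest OAZ1 library of any other arm, labelled CNOT4, was at 798. The means were 433 ± 23.9 and 1662 ± 105 normalised CPM (SD, n = 12 each). The log2 fold change was -1.94 ± 0.05 (SE), edgeR adjusted p = 1.49e-25.

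The difference was there at each chase time taken alone. With 3 libraries against 3, the log2 fold change was -2.06 at 0 h, -1.86 at 2 h, -1.98 at 4 h and -1.88 at 8 h, each called by edgeR. In NT itself OAZ1 was at -0.06 ± 0.10 (log2, SE) at 8 h against 0 h, edgeR adjusted p = 1.00, and edgeR called none of the 10 genes over the chase in NT, where 0.00% of all genes were called. AZIN1 and EIF5A had an unadjusted p under 0.05 there, at 0.55 ± 0.24 and -0.29 ± 0.14, and DESeq2 called none of the 10 either. Of all 12126 genes, 615 had an unadjusted edgeR p under 0.05, and DESeq2 called 47 higher and 49 lower.

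**Figure D2:**
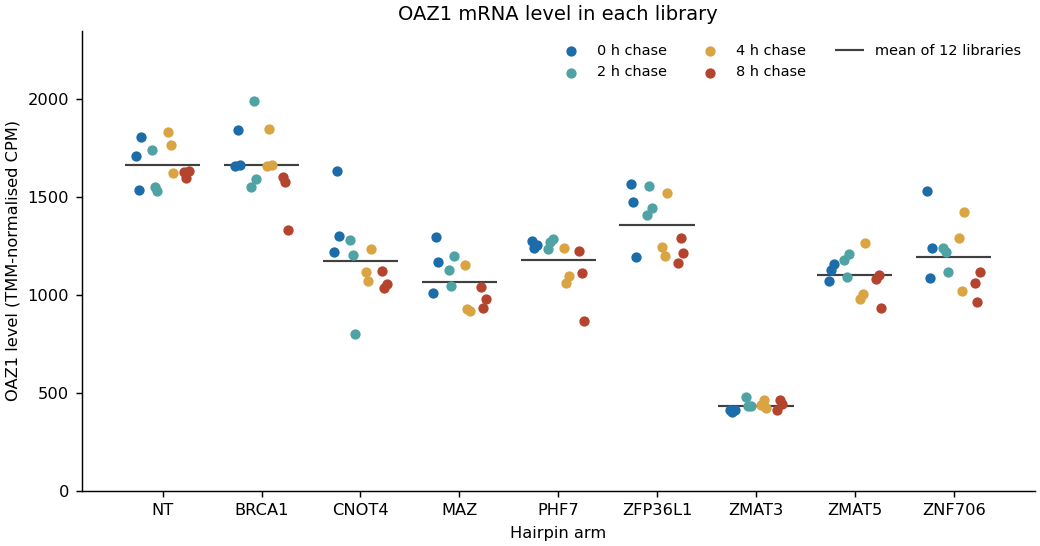
OAZ1 level in TMM-normalised CPM (vertical axis, from 0) in each of 108 libraries by hairpin arm (horizontal axis), coloured by chase time, with the mean of 12 libraries as a line. The 12 ZMAT3 libraries lie between 401 and 477, below every other library, and NT and BRCA1 lie highest.

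OAZ1 was lower by much less in 6 further arms. Relative to the NT mean it stood at 64.1% in MAZ, 66.2% in ZMAT5, 70.9% in PHF7 and 71.7% in ZNF706 knockdown, and in each of these arms all 12 libraries were below the lowest NT library. The libraries labelled CNOT4 stood at 70.5%, with 11 of 12 below the lowest NT library, and those labelled ZFP36L1 at 81.5%, with 10 of 12. BRCA1 knockdown stood at 100.1% and its range, 1330 to 1988 normalised CPM, enclosed that of NT. Log2 fold changes of these 6 arms ran from -0.65 ± 0.06 in MAZ to -0.30 ± 0.06 in ZFP36L1, where without replicate 1 it was -0.25 and under the fold threshold. In the order of arm means, ZMAT3 was lowest and its mean ± SD was clear of the next, MAZ. From MAZ up to ZFP36L1, neighbours did not differ beyond their SDs. NT was clear of ZFP36L1, and NT and BRCA1 overlapped at the top. These 7 differences share 1 set of NT libraries. Set against the 12 BRCA1 libraries in place of NT, a comparison chosen after seeing the data, OAZ1 was called lower in the same 7 arms, from -1.95 in ZMAT3 to -0.30 in ZFP36L1.

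OAZ1 label was lost faster in ZMAT3 knockdown than in NT. At 0 h the conversion rate was 1.24%, 1.35% and 1.53% of covered T positions in the NT replicates and 3.29%, 3.73% and 4.25% in ZMAT3. At 8 h it was 0.770%, 0.997% and 1.02% in NT and 0.569%, 0.602% and 0.730% in ZMAT3. The ZMAT3 replicates were thus all above NT at the start of the chase and all below it at the end. As a share of its 0 h mean, 16.9% of OAZ1 label was left at 8 h in ZMAT3 against 67.6% in NT. The rate pooled over 3632 genes did not separate the arms in that way, with 41.6% left in ZMAT3 and 38.7% in NT.

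**Figure D3:**
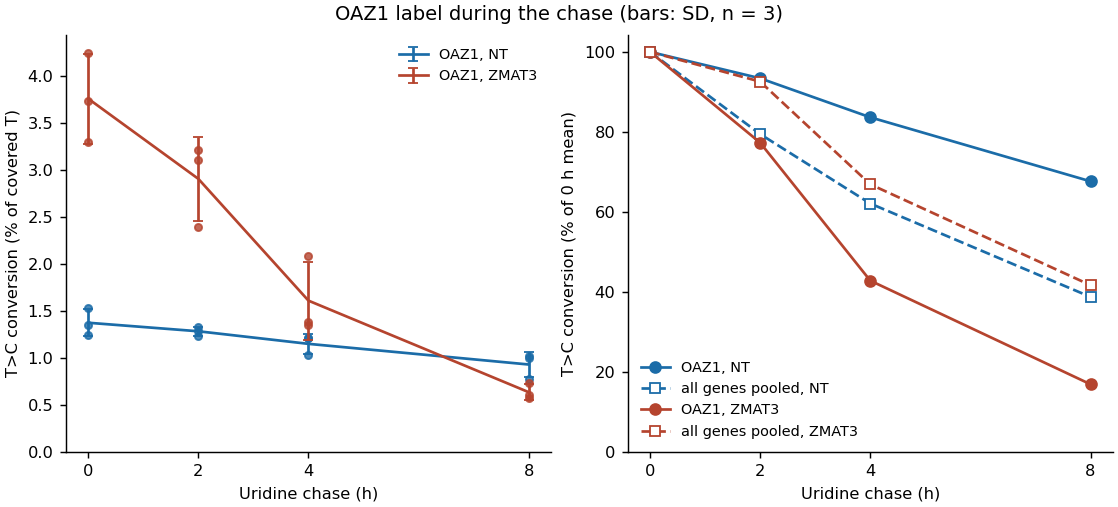
Left, OAZ1 T>C conversion rate (% of covered T positions) against hours of uridine chase in NT and ZMAT3 knockdown, replicates as points and mean ± SD, n = 3. Right, the same means as % of the 0 h mean, with the rate pooled over 3632 genes as dashed lines; OAZ1 falls to 16.9% in ZMAT3 and to 67.6% in NT, on either side of the pooled rates of 41.6% and 38.7%.

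The slope of ln(conversion rate) on chase hours was steeper by 0.181 ± 0.021 per h in ZMAT3 (difference -0.181, SE 0.021), edgeR adjusted p = 2.00e-05 over 7499 genes. Negative differences are faster loss. OAZ1 was 1 of 10 genes called, and the 1 gene of all 7499 that passed in that direction (0.0133%), whereas 48 passed as slower. The alternatives that kept all chase times gave -0.131 to -0.189, all called, with adjusted p of 2.17e-05 to 0.0128. Without the 8 h libraries the difference was -0.168 with an edgeR adjusted p of 0.370, so the call rested on the last chase time while the value did not.

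The half-life fitted to replicate means was 3.56 h for OAZ1 in ZMAT3 knockdown and 14.8 h in NT. Curves through single replicates gave 2.52, 3.51 and 5.30 h in ZMAT3 and 12.1, 13.1 and 24.1 h in NT, without overlap. The half-life in ZMAT3 was 24.0% of that in NT, and the level was 26.1%. In the same order the values were 72.5% and 64.1% in MAZ, 70.6% and 70.9% in PHF7, and 71.8% and 66.2% in ZMAT5. They were 88.1% and 71.7% in ZNF706, 102% and 70.5% in CNOT4, 57.6% and 81.5% in ZFP36L1, and 148% and 100% in BRCA1. Whether the loss of label had a part in the level was not tested. In NT, OAZ1 outlasted 98.1% of the 5544 genes with a half-life, whose median was 3.27 h. In ZMAT3 it outlasted 27.8% of 7868 genes, whose median was 5.06 h. Other arms lay between 8.54 h (ZFP36L1) and 21.9 h (BRCA1).

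OAZ1 was also more labelled than other mRNAs at the start of the chase in ZMAT3. Its log2 ratio to NT at 0 h was 1.45 ± 0.17 (SE, edgeR adjusted p = 0.0184), whereas the median over all genes was 0.91. Between 66.1% and 74.2% of OAZ1 reads carried T>C at 0 h in ZMAT3 against 37.5% to 40.2% in NT. Relative to the rate pooled over genes, OAZ1 stood at 1.27 in ZMAT3 and 0.771 in NT at 0 h, and at 0.513 and 1.35 at 8 h. Without replicate 3 the ratio at 0 h was 1.34 with an adjusted p of 0.0680.

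The hairpin listed for ZMAT3 was read against OAZ1 because a guide can also pair with other mRNAs. Its guide strand is shown 5′ to 3′ with the seed, bases 2 to 8, in capitals. It is the sequence given for the study's knockdown RNA-seq, which the SLAM-seq methods refer back to.
ZMAT3 guide: aTTTCGGAgtttcttaccatg
The complement of the seed, TCCGAAA on the sense strand, lies in the counted bases of 3.56% of expressed genes. It was in none of the 11 annotated OAZ1 transcripts, and the longest run of OAZ1 bases able to pair with the guide without a gap was 8. Among the 10 genes the longest such run was 11 bases, in AMD1, and the seed complement occurred in 2 of 9 OAZ2 transcripts. Guides listed for other arms were read against the genes called lower there. No guide sequence was found for MAZ or BRCA1, so those arms were not read. The CNOT4 seed complement was in 12 of 17 AZIN1, 5 of 6 ODC1 and 1 of 9 OAZ2 transcripts. It was in none of OAZ1, SMS or EIF5A. That of ZFP36L1 was in 10 of 17 AZIN1, 2 of 4 SMS and 1 of 11 OAZ1 transcripts. It was not in OAZ2, ODC1 or EIF5A. That of ZNF706 was in 2 of 11 EIF5A transcripts and in none of OAZ1. For PHF7 and ZMAT5 no such gene held it. Such seed complements are common: those of CNOT4, ZFP36L1 and ZNF706 lie in the counted bases of 31.4%, 20.9% and 31.2% of expressed genes. The counted bases of AZIN1, ODC1 and OAZ2 did not hold that of CNOT4. Transcripts of genes not called lower held them too, such as AZIN1 in 12 of 17 for PHF7 and ZMAT5 and 11 of 17 for ZNF706. Whether such pairing, or any other of a guide, had a part was not tested.

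EIF5A, the factor that helps ribosomes through stalling sequences once it carries hypusine, had the widest range of arm means of the 10 genes, 2.00 on the log2 scale, with OAZ1 next at 1.94. The 12 NT libraries ranged from 535 to 960 normalised CPM, median 755. The lowest arms were the libraries labelled CNOT4, 132 to 332, median 170, and ZMAT5 knockdown, 138 to 274, median 199. Next came ZNF706 at 293 ± 83.0, ZFP36L1 at 293 ± 65.0, PHF7 at 296 ± 69.1, MAZ at 315 ± 50.1 and ZMAT3 at 408 ± 88.9 (normalised CPM, mean ± SD, n = 12). In these 7 arms every library was below the lowest NT library, although each arm overlapped its neighbour in the order of means within their SDs.

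**Figure D4:**
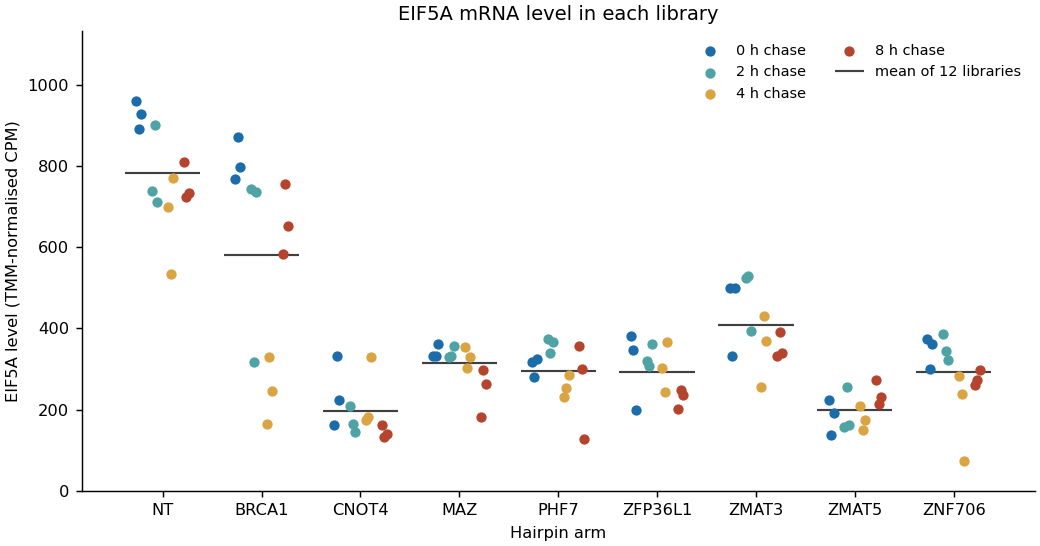
EIF5A level in TMM-normalised CPM (vertical axis, from 0) in each of 108 libraries by hairpin arm (horizontal axis), coloured by chase time, with the mean of 12 libraries as a line. All libraries of 7 knockdowns lie below the lowest NT library at 535, and BRCA1 knockdown splits, its 4 h libraries lying between 165 and 330.

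The log2 fold changes of EIF5A were -2.03 ± 0.13 in CNOT4 and -1.98 ± 0.10 in ZMAT5, the largest, and -0.95 ± 0.08 in ZMAT3, the smallest of those called (SE). The edgeR adjusted p was at most 4.05e-10 in these 7 arms. In BRCA1 knockdown the value was -0.54 ± 0.14, edgeR adjusted p = 0.148. There the libraries fell apart by chase time, with 769, 797 and 871 normalised CPM at 0 h, 317, 736 and 743 at 2 h, 165, 247 and 330 at 4 h, and 582, 651 and 755 at 8 h. All 3 libraries at 4 h were below every NT library. The test for a dependence on chase time gave an unadjusted p of 0.000433 and an edgeR adjusted p of 0.329. Against BRCA1 libraries in place of NT, EIF5A was called lower in 6 arms, from -1.50 in CNOT4 to -0.79 in MAZ, and in ZMAT3 it was at -0.41 with an edgeR adjusted p of 0.0917.

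EIF5A was not called for label loss in any arm, with differences in slope from -0.034 to 0.010 per h. A half-life could be fitted in 6 arms, 9.50 to 16.6 h, and not in NT, where the curve fell short of the R² minimum of 0.6. At 0 h the EIF5A conversion rate was 1.39 ± 0.14% in NT (SD, n = 3). It was 2.78 ± 0.30% in MAZ and 2.66 ± 0.41% in ZMAT3, where the level was 40.2% and 52.0% of NT, and both were called higher by edgeR, at log2 ratios of 1.00 and 0.94 beside all-gene medians of 0.87 and 0.91. In ZMAT5, with a level of 25.2% of NT, it was 1.24 ± 0.20%, at -0.17 beside an all-gene median of -0.41, and was not called.

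OAZ2 and AZIN1 were called only in arms where OAZ1 was also lower, and not in ZMAT3 knockdown. OAZ2, a second antizyme, was lower in the libraries labelled CNOT4, by -0.96 ± 0.18 (log2, SE), and ZFP36L1, by -0.89 ± 0.12, and was higher in ZMAT5 knockdown, by 0.36 ± 0.11. The CNOT4 value differed between chase times. OAZ2 there was at 111 normalised CPM at 0 h and 43.8 at 8 h, and times taken alone gave -0.21 at 0 h (edgeR adjusted p = 0.638), -1.11 at 2 h, -0.80 at 4 h and -1.67 at 8 h, of which 8 h was called. Without the 8 h libraries it was -0.72 and called. In ZMAT3 knockdown OAZ2 was at -0.06. In ZNF706 it was at 0.34 with an edgeR adjusted p of 0.0522. That value was called with DESeq2 (0.32), uniquely mapped reads (0.35), BRCA1 as reference (0.39) and without replicate 3 (0.51), and not without replicate 1 or 2 (0.25 and 0.29). Its 12 ZMAT5 libraries, 143 to 209 normalised CPM, all lay within the NT range of 101 to 217, and leaving out any 1 replicate number ended that call. AZIN1, the inhibitor, was lower in CNOT4, by -1.05 ± 0.17, and in ZFP36L1, by -0.72 ± 0.10. Without PHF7 8 h replicate 3, in which AZIN1 had no read, AZIN1 was called higher in PHF7 knockdown at 0.41, edgeR adjusted p = 0.00226, where the value with that library was 0.32.

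ODC1, the target of antizyme, was lower in the libraries labelled CNOT4 and ZFP36L1 and higher in ZNF706 knockdown. Its CNOT4 libraries ran from 225 to 311 normalised CPM and did not overlap NT, 429 to 638. The log2 fold change was -1.01 ± 0.09 there and -0.46 ± 0.08 in ZFP36L1. In ZNF706 knockdown it was 0.46 ± 0.07, with 10 of 12 libraries above the highest NT library. In ZMAT3 knockdown, where OAZ1 was lowest, ODC1 mRNA was at 0.24 and did not reach the fold threshold, and without replicate 3 it was at 0.28 and called. ODC1 protein, on which antizyme acts, was not measured here.

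The enzymes that build spermidine and spermine differed from each other. SMS, spermine synthase, was lower in the libraries labelled ZFP36L1, 137 to 188 normalised CPM against 237 to 420 in NT with no overlap, at -1.04 ± 0.08, and in those labelled CNOT4, at -0.88 ± 0.11. SRM, spermidine synthase, was instead higher in ZFP36L1, 325 to 692 against 173 to 428, at 0.81 ± 0.10. In that arm 99.7% of SRM reads were in 1 of its 5 intervals against 88.8% in NT, and the part of this in the difference was not tested. SRM was lower in PHF7, at -0.39 ± 0.12, a call that leaving out any 1 replicate number ended, and in ZMAT3, at -0.37 ± 0.09, where it was at -0.29 and not called without replicate 3. AMD1, which supplies the aminopropyl donor, stayed within -0.18 to 0.08 in all 8 knockdowns, and none passed the test.

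SAT1, which acetylates spermidine and spermine, was higher in ZMAT3 knockdown. NT libraries ran from 19.9 to 84.3 normalised CPM, median 38.9, and ZMAT3 libraries from 75.6 to 152, median 98.2. The ranges met at the edge, with 11 of 12 ZMAT3 libraries above the highest NT library. The log2 fold change was 1.25 ± 0.19, edgeR adjusted p = 1.51e-05, and no other arm passed. Of the 4 chase times taken alone, the call was lost at 2, 4 and 8 h. The values there were 0.76, 1.51 and 1.27, with edgeR adjusted p of 0.530, 0.141 and 0.199. NT libraries held 163 to 814 SAT1 reads. SAT1 label loss in ZMAT3 differed from NT by 0.008 per h and was not called.

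DHPS, the first enzyme of hypusine formation, passed in no arm, with log2 fold changes of -0.22 to 0.32. Its largest interval held 63.6% of reads and overlaps WDR83 on the other strand, and the sources used here state no strand setting, so the pair cannot be told apart there. That interval took 94.3% of DHPS reads in the libraries labelled ZFP36L1 and 68.3% in NT. With it left out, a choice made after seeing the data, DHPS was called lower in ZFP36L1 at -2.50, edgeR adjusted p = 0.000725, and was at -2.10 in CNOT4, adjusted p = 0.0900. Only intervals further from the 3′ end then remain. For OAZ1, the interval nearest the 3′ end held 95.1% of reads in NT, 99.2% in ZFP36L1 and 99.3% in CNOT4. For SRM it held 88.8%, 99.7% and 99.7%, and for AMD1 98.7%, 98.2% and 98.9%. The part of this read position in the DHPS values was not tested.

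Label gave 1 called loss and a wide spread of lifetimes. Apart from OAZ1 in ZMAT3, edgeR called none of the 10 genes for label loss in any knockdown, with 0 to 2 per knockdown at an unadjusted p under 0.05 and none by limma. The share of all genes called for loss by edgeR was 0.00% in BRCA1, 0.0579% in CNOT4, 0.0402% in MAZ, 0.361% in PHF7, 0.149% in ZFP36L1, 0.0684% in ZMAT5 and 0.0136% in ZNF706. At an unadjusted edgeR p under 0.05, counts over all genes in these knockdowns ran from 510 of 7039 in BRCA1 to 763 of 7488 in PHF7. Limma called 168 genes slower in PHF7, the most of these. In NT the half-life was 29.4 h for SMS, 12.2 h for ODC1, 5.20 h for OAZ2, 4.29 h for SAT1, 3.32 h for AZIN1 and 2.92 h for AMD1, and no curve passed for SRM, EIF5A and DHPS. Some of these rest on single replicates. SMS was at 17.3 h without replicate 3 and had no curve without replicate 1 or 2, AZIN1 was at 2.05 h without replicate 2, ODC1 was at up to 15.5 h without replicate 1, and SAT1, at an R² of 0.603, had no curve without replicate 3. OAZ1 stayed within 12.6 to 16.8 h, OAZ2 within 5.08 to 5.46 h and AMD1 within 2.67 to 3.10 h. AMD1 kept to 2.29 to 3.25 h in all 9 arms. SMS ranged from 4.33 h in BRCA1 to 35.5 h in PHF7, and such long values rest on little loss over 8 h.

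**Figure D5:**
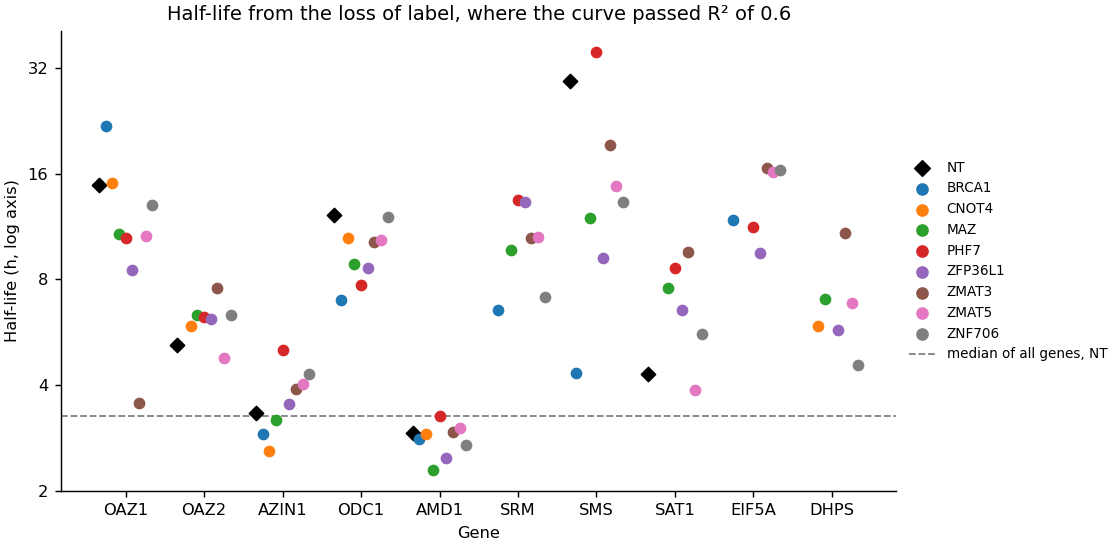
Half-life in hours (vertical log axis) of each gene (horizontal axis) by arm, with NT as black diamonds and the NT median of all genes, 3.27 h, as a dashed line; arms without a curve of R² over 0.6 are left out. OAZ1 in ZMAT3 knockdown, at 3.56 h, lies below all other OAZ1 values, which start at 8.54 h.

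At 0 h, 7 of the 10 genes were more labelled in MAZ knockdown, and 7 in ZMAT3 knockdown, where 33.1% and 25.5% of all genes were. In each knockdown these were OAZ1, AZIN1, ODC1, AMD1, SRM, SMS and EIF5A. The rate pooled over genes rose with them, from 1.78% in NT to 2.90% in MAZ and 2.96% in ZMAT3, and both comparisons share the NT libraries. The median log2 ratio of the 10 genes was 0.86 in MAZ and 0.87 in ZMAT3, beside 0.87 and 0.91 over all genes. EdgeR called none of the 10 in the other 6 knockdowns. Of all genes it called 0.00% in BRCA1, CNOT4 and ZNF706, 0.131% in PHF7, 0.0367% in ZFP36L1 and 2.75% in ZMAT5. At an unadjusted edgeR p under 0.05 there were 1 to 5 of the 10 genes, the most in ZNF706. Over all genes these were 1428 of 8150 in ZNF706, 1951 of 8389 in PHF7 and 1564 of 8260 in ZMAT5. They were 304 of 8080 in BRCA1, 637 of 8097 in CNOT4 and 1002 of 8167 in ZFP36L1. Calls at 0 h depended on single replicates for all genes alike. Without replicate 2 none of 7407 genes was called in MAZ, and without replicate 3 none of 7458 in ZMAT3 by edgeR, with 2897 and 2027 at an unadjusted p under 0.05. The log2 ratios of the 7 genes were then 0.75 to 1.02 in MAZ (0.63 to 1.11 with all replicates) and 0.69 to 1.34 in ZMAT3 (0.77 to 1.45).

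Of 25 further polyamine, arginine and methionine salvage genes, 24 had enough reads to be tested. In the libraries labelled CNOT4, 6 were lower and 1 higher, and in those labelled ZFP36L1 likewise 6 and 1, beside the shares of all genes given above, 13.5% in each direction in CNOT4 and 18.3% lower and 21.7% higher in ZFP36L1. Both arms had lower OAT, an enzyme that acts on ornithine, at -1.26 ± 0.10 and -0.78 ± 0.08. SLC18B1, a polyamine transporter, was lower in both, at -2.10 ± 0.35 and -1.19 ± 0.24. So was MAT2B, at -1.03 ± 0.31 and -1.07 ± 0.12. MAT2A, which with MAT2B makes S-adenosylmethionine, was lower at -0.55 ± 0.14 and -0.27 ± 0.09. MRI1, of methionine salvage, was higher in both, at 0.55 ± 0.16 and 0.64 ± 0.12. ALDH18A1, at the start of ornithine synthesis from glutamate, was lower in CNOT4, edgeR adjusted p = 0.0150, and higher in ZMAT3, at 0.37 ± 0.11 (log2). ADI1 and APIP, also of methionine salvage, were called too, but 99.7% and 11.2% of their reads were multimapped, and for MAT2A it was 18.7% with counted bases shared with GGCX.

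DOHH, which completes hypusine, was lower in MAZ, PHF7 and ZMAT5 knockdown, at -0.97 ± 0.25, -1.35 ± 0.27 and -1.24 ± 0.31. ATP13A2, a lysosomal polyamine exporter, was lower in PHF7 at -1.37 ± 0.30 and ZMAT3 at -1.09 ± 0.28, and its relative ATP13A3 was higher in ZMAT5 at 0.71 ± 0.18. SLC3A2, a heavy chain of amino acid transporters, was lower in PHF7 at -0.53 ± 0.11 and higher in ZMAT3 at 0.72 ± 0.09. MAT2A was higher in ZMAT5 and ZNF706, at 0.33 ± 0.09 and 0.32 ± 0.10. Label loss was slower for MAT2A in CNOT4, PHF7 and ZMAT3, by 0.304, 0.261 and 0.277 per h, and for SLC3A2 in ZMAT3, by 0.128 per h. Without the 8 h libraries MAT2A in CNOT4 was at 0.347 per h with an edgeR adjusted p of 1.00, and its level there at -0.36 and not called.

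Over the 36 group means of log2 CPM, the patterns most like OAZ1 were those of SRP14, a signal recognition particle protein (Pearson r = 0.75), the SNARE YKT6 (0.75) and PPDPF (0.74), and most like EIF5A were the readthrough SENP3-EIF4A1 (0.82), whose bases overlap those of EIF4A1, UBE2M (0.78) and PTPA (0.78), out of 8128 genes. The groups share arms and libraries, so these values are descriptions. All 3 genes like OAZ1 had their lowest arm mean in ZMAT3 knockdown. Among them, SRP14 was at 363 against 673 in NT and PPDPF at 185 against 448 normalised CPM. They were picked for likeness to OAZ1, whose own lowest arm was ZMAT3, so this is not a separate result.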

How the data were processed

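SLAM-seq measured RNA level and 4SU label in 108 HEK293T libraries, grouped by arm and chase time from the labels. The authors trimmed the 3′ reads, aligned them to hg38 with SlamDunk, keeping multimapped reads, and deposited for each library and 3′ UTR interval the read count, T>C read count, covered T and conversion counts, and CPM scaled to all mapped reads. The deposited CPM was used for expression minimums, and the deposited counts for all tests. The counts of 69079 intervals were summed to 19761 genes, of which 19501 were named through GENCODE 44. Multimapping and 3′ priming limit what is counted: shared or alternative ends move reads between genes.

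Levels were tested with edgeR 4.0.16 (quasi-likelihood, TMM, filterByExpr, chase time as a factor, 12 libraries against 12), and called at an adjusted p under 0.05 and a fold over 1.2. Label loss was tested with edgeR on conversions, with covered T as offset and an arm by hour term, for genes that exceeded 5 CPM in 2 or more replicates of every group compared. Label at 0 h was tested in the same way, 3 against 3. Benjamini-Hochberg adjustment covered all genes tested. Half-lives came from first-order curves with R² over 0.6, with no test. The fits were tested on simulated data. R 4.3.3, limma 3.58.1, DESeq2 1.42.0 and Python 3.11.15 were used. Alternatives were other size factors, DESeq2 or limma, no filter, uniquely mapped reads, T>C reads, single chase times, left-out replicates and a replicate block.

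Genes named were the 10 members, called genes of the further list, and the 3 genes most alike in pattern. The members and lists were chosen with earlier results of these data known. PCR reads carry no molecular identifiers, so counts do not measure independent molecules. Libraries of one group differed by more than sampling noise (chi-square per degree of freedom 5.09 to 113), so none was counted as a duplicate. Same-numbered replicates did not deviate together, with correlations of -0.042 to 0.061 in 96 pairs, and were not treated as pairs.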

Additional observations from a re-analysis of the deposited data

How the results depend on the processing

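The counts of the 10 genes called for level kept within 1.5 times of their value under other size factors, DESeq2, uniquely mapped reads and the replicate block. Without the low-count filter 1 gene, EIF5A, was called in BRCA1 knockdown. Single chase times, with 3 libraries against 3, gave fewer calls: 2 in CNOT4, 1 in MAZ, 4 in ZFP36L1 and 1 in ZNF706 at 0 h, 1 each in CNOT4, PHF7, ZMAT3 and ZMAT5 at 2 h, 1 each in PHF7 and ZMAT3 and 0 each in MAZ and ZNF706 at 4 h, and 0 in PHF7 and 2 in ZMAT3 at 8 h. Over all genes, higher and lower calls at 0 h were 642 and 821 in CNOT4 and 32 and 39 in MAZ. They were 773 and 898 in ZFP36L1 and 27 and 27 in ZNF706. At 2 h they were 73 and 79 in CNOT4 and 27 and 98 in PHF7. ZMAT3 had 2 and 20 then, and ZMAT5 12 and 21. At 4 h they were 3 and 36 in PHF7, 0 and 18 in ZMAT3, and 0 and 1 in MAZ and ZNF706. At 8 h they were 0 and 0 in PHF7 and 12 and 66 in ZMAT3. Between 11149 and 12126 genes were tested. Against BRCA1 libraries 5 of the 10 genes were called in ZNF706, where 341 of 13009 genes were higher and 296 lower. SRM in PHF7 turned from -0.39 to 0.13 with the 8 h libraries alone, and lost its call with other size factors, the replicate block (adjusted p = 0.0579) and each left-out replicate. Label loss in ZMAT3 gave 0 calls without the 8 h libraries. At 0 h, T>C reads in place of conversions gave 1 call in CNOT4 and 1 in ZMAT3, the replicate block gave 4 in ZMAT3, and leaving out 1 replicate gave 0 to 6 in MAZ and 0 to 7 in ZMAT3. Calls over all genes fell or rose with them: in ZMAT3 from 2117 to 26 with T>C reads and 706 with the block, and in CNOT4 from 0 to 261 with T>C reads. Of 341 half-lives recomputed under alternatives, other than those of OAZ1 in NT and ZMAT3, 46 moved by more than the SD of the single-replicate curves and 60 changed where too few replicates gave a curve for an SD. Those of OAZ1 in NT and ZMAT3 stayed within that SD, at 12.6 to 16.8 h and 2.98 to 4.26 h. The causes were not tested. PHF7 8 h replicate 3, at 63659 reads, limits what that group shows.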
